A study of Mus musculus with 21 samples.

Results

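The 10 genes of a set of cardiac lineage transcription factors, chosen by name, were followed through 21 mouse RNA-seq libraries: Gata4, Gata6, Nkx2-5, Tbx5, Tbx20, Mef2a, Mef2c, Mef2d, Hand2 and Prox1. All 10 were found among the 53801 gene identifiers of the count tables. These genes and the gene lists used below were chosen with earlier results of these data known. The 15 heart libraries, called hearts below, came from tissue labelled border zone, the muscle beside an infarct, at day 7. They comprised 3 wild-type hearts after a sham operation, 4 wild-type hearts after myocardial infarction (MI), 4 wild-type hearts with MI and FAPI, and 4 hearts with MI and the FapKO genotype. Fap encodes a cell-surface protease that fibroblasts make when activated. From the series title, FAPI is taken to be an inhibitor of it. The sources used here give no compound, dose, knockout allele, strain or age. No sham heart carried the FapKO genotype or had received FAPI. The 6 other libraries held cardiac fibroblasts from mouse ventricles after 7 days in a 5% GelMA gelatin hydrogel. In 3 of them the fibroblasts had grown alone (3D-culture), and in 3 they had grown with endothelial cells of heart and lung (co-culture), and the labels call these biological replicates. Both experiments were analysed apart.

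These factors sit near the top of the gene programme that builds and maintains heart muscle. GATA4 and GATA6 are zinc finger proteins, NKX2-5 is a homeodomain protein, TBX5 and TBX20 are T-box proteins, MEF2 proteins are MADS-box factors that drive muscle genes, and HAND2 is a basic helix-loop-helix protein. They bind one another and share enhancers of genes for contraction and conduction. PROX1 is a homeodomain protein best known for lymphatic endothelial identity, and it is also made in cardiomyocytes. GATA4, TBX20, HAND2 and TBX5 are made by cardiac fibroblasts as well as by muscle cells, so a change in heart tissue can come from more than one cell type.

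RefSeq promoter windows of build GRCm38.p6, from 250 bases before to 50 bases after a gene's start, were matched for 7 of the 10 genes in 10 windows. The windows below, 5′ to 3′ along the gene, belong to Nkx2-5 and Prox1, which fell far after infarction, to Tbx20, which rose, to Hand2, which differed most clearly in culture, and to Mef2a, whose window holds a MEF2 match.
Nkx2-5 (chr17:26841516-26841815, minus strand): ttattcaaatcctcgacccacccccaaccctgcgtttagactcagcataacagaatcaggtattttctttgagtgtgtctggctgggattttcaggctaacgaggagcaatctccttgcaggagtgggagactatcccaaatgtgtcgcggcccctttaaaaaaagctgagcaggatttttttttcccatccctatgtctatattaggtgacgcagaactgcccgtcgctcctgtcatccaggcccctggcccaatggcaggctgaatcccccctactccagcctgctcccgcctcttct
Prox1 (chr1:190170778-190171077, minus strand): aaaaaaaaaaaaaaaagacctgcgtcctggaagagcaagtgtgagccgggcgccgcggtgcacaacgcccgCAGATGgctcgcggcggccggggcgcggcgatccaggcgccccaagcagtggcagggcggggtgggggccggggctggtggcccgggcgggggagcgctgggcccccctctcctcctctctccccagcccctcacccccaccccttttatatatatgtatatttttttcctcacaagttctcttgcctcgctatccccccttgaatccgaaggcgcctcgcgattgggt
Tbx20 (chr9:24774254-24774553, minus strand): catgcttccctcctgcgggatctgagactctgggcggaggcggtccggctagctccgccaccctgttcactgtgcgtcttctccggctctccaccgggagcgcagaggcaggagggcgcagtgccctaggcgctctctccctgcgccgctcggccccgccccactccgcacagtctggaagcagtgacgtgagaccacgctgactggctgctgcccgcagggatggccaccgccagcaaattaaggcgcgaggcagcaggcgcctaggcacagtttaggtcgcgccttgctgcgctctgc
Hand2 (chr8:57320733-57321032, plus strand): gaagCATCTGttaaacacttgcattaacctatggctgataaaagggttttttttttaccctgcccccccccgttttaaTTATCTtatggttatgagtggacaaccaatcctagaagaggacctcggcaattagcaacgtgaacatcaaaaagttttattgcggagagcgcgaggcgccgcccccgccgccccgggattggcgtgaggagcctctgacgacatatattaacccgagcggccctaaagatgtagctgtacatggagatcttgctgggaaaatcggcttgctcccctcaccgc
Mef2a (chr7:67372809-67373108, minus strand): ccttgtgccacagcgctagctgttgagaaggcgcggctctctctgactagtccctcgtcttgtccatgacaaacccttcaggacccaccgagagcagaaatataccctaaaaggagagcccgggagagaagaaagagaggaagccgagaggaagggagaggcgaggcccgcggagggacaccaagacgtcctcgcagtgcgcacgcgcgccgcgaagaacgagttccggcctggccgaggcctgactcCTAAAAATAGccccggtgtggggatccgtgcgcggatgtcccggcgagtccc
Capitals mark matches, on either strand, to 5 motifs: AGATAA for GATA factors, TNAAGTG for NKX2-5, GGTGTGA for T-box factors, CATCTG for HAND factors and the MEF2 consensus. No motif overlapped another in a printed window. The Mef2a window held the MEF2 consensus from position −2, and it matched on both strands; 3.19% of 32851 promoter windows held one. In the Hand2 window a HAND motif began at position −246 and a GATA motif at −172, counted from the start. HAND motifs were in 17.2% and GATA motifs in 11.2% of all windows. The printed Prox1 window held a HAND motif at −179. A second Prox1 window, not printed (chr1:190169466-190169765), held no match to the 5 motifs. The Nkx2-5 and Tbx20 windows held none of these letters, which says nothing of whether the factors bind there. NKX2-5 motifs were in 11.5% and T-box motifs in 3.98% of all windows.

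Heart libraries held 18474138 to 37287355 gene counts, co-culture libraries 4735337 to 6346015 and 3D-culture libraries 12871240 to 15650221. Levels are CPM, counts scaled to a common library size, after TMM scaling, and tests are edgeR's quasi-likelihood F test with Benjamini-Hochberg adjustment over all genes, called at an adjusted p below 0.05. Whether every heart library stands for a separate mouse is not stated, and the p-values therefore reflect variation among libraries, which may be technical. Fap itself lay at 1.79 to 2.36 CPM in FapKO hearts, 9.40 to 13.2 in MI, 6.47 to 10.4 in FAPI and 2.71 to 3.86 in sham hearts. The mean log2 CPM of 21 cardiomyocyte markers was 10.98 ± 0.074 in sham (SD, n = 3), 8.19 ± 0.618 in MI, 9.89 ± 0.404 in FAPI and 10.3 ± 0.145 in FapKO hearts (SD, n = 4 each). All 21 markers were detected in every heart group. MI replicate 3 had the highest cardiomyocyte marker level of its group (9.09, against 7.77 to 8.12). MI replicate 2 and FapKO replicate 1 held 958.2 and 357.6 CPM of 12 skeletal muscle genes, a list chosen after the values were seen, against 20.4 to 70.2 CPM in the other hearts. Results that rest on these libraries are given with and without them.

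Among the 10 genes, 8 were lower in MI than in sham hearts, Tbx20 was higher and Mef2c was not called. In the same comparison 69.1% of 17064 genes tested were called, 32% lower and 37.1% higher. The median log2 fold change of the 10 genes was −0.585, against 0.141 over all genes. All 21 cardiomyocyte markers were lower too, and in bulk tissue fewer cells of a type and less RNA per cell cannot be told apart. Prox1, Tbx5 and Nkx2-5 fell most, Gata4 followed, and Gata6, the MEF2 genes and Hand2 moved by less than 1 on the log2 scale.

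**Figure D1:**
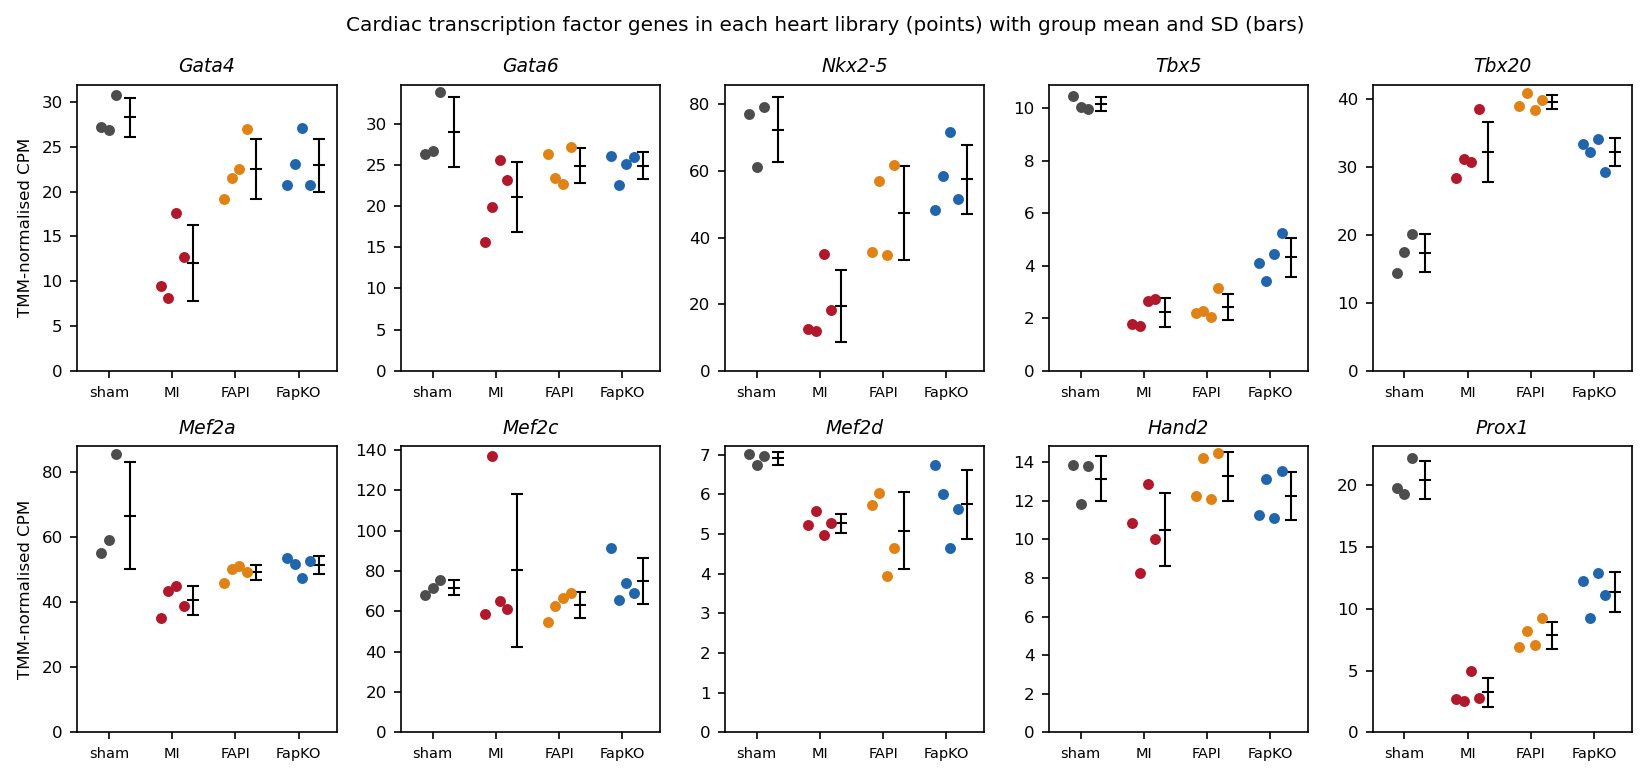
TMM-normalised CPM of the 10 genes (y axis, starting at 0) in the sham, MI, FAPI and FapKO hearts (x axis). Points are libraries and bars are group mean and SD. Prox1 and Tbx5 are highest in the 3 sham hearts, Tbx20 is lowest there, and Mef2c has 1 MI heart at 137.3 CPM.

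Nkx2-5 (ENSMUSG00000015579.4, mm10 chromosome 17, 26838664 to 26845009, minus strand) encodes a homeodomain activator of cardiomyocyte genes. It measured 77.0, 61.1 and 79.2 CPM in sham, 12.6, 11.96, 35.1 and 18.4 in MI, 35.8, 56.9, 34.7 and 61.8 in FAPI, and 48.3, 58.4, 71.7 and 51.6 in FapKO hearts. All MI hearts lay below all sham hearts, and MI replicate 3 was nearly level with the lowest FAPI hearts. The log2 fold change from sham to MI was −1.89 (SE 0.308, edgeR adjusted p = 4.27e-05).

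Prox1 (ENSMUSG00000010175.13, chromosome 1, 190118035 to 190170714, minus strand) gave 19.8, 19.3 and 22.2 CPM in sham, 2.69, 2.55, 5.01 and 2.77 in MI, 6.89, 8.18, 7.06 and 9.27 in FAPI, and 12.3, 9.27, 12.9 and 11.1 in FapKO hearts. It had the widest spread of the 10 genes between groups, and MI lay apart from every other group. Its log2 fold change from sham to MI was −2.65 (SE 0.198, edgeR adjusted p = 1.11e-08). Lymphatic endothelial cells also make Prox1, so 6 of their markers were read beside it. Their mean log2 CPM was 1.30 in sham, 1.48 in MI, 1.59 in FAPI and 1.58 in FapKO hearts, and of the 5 tested 2 were higher and 0 lower in MI than in sham hearts. Ccl21a, a marker with near-identical gene copies, was at 0 in sham hearts as well as in MI and FAPI hearts. The list was not specific to cells that make Prox1. Its summed level was 628.6 to 859.8 CPM in co-culture and 681.5 to 1725 in 3D-culture, where Prox1 had at most 3 counts per library. In hearts it ran from 50.8 to 121.3 CPM. The part of lymphatic cells in the Prox1 change was not tested.

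Gata4 (ENSMUSG00000021944.15, chromosome 14, 63198922 to 63271692, minus strand) encodes a factor needed for hypertrophic and survival programmes of cardiomyocytes. Its level was 27.2, 26.9 and 30.8 CPM in sham, 9.53, 8.12, 17.7 and 12.7 in MI, 19.2, 21.5, 22.5 and 27.1 in FAPI, and 20.7, 23.1, 27.1 and 20.8 in FapKO hearts. The MI values overlapped no other group. The log2 fold change from sham to MI was −1.24 (SE 0.202, edgeR adjusted p = 4.24e-05). Its relative Gata6 (ENSMUSG00000005836.8, chromosome 18, 11052064 to 11085635, plus strand) spanned 26.3 to 33.8 CPM in sham, 15.7 to 25.6 in MI, 22.7 to 27.2 in FAPI and 22.6 to 26.1 in FapKO hearts. Gata6 moved less than Gata4, changing from sham to MI by −0.46 on the log2 scale (SE 0.143, edgeR adjusted p = 0.00964), and the call was lost without sham replicate 3 (−0.33, adjusted p = 0.0748).

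Tbx5 and Tbx20, both T-box genes, moved in opposite directions. Tbx5 (ENSMUSG00000018263.11, chromosome 5, 119832668 to 119885219, plus strand), which activates chamber and conduction genes, measured 10.5, 10.1 and 9.99 CPM in sham, 1.79, 1.73, 2.64 and 2.74 in MI, 2.21, 2.26, 2.06 and 3.18 in FAPI, and 4.12, 3.44, 4.46 and 5.26 in FapKO hearts. Sham hearts lay above all others, FapKO hearts lay above all MI and FAPI hearts, and MI and FAPI overlapped. The log2 fold change from sham to MI was −2.20 (SE 0.191, edgeR adjusted p = 4.43e-08). Tbx20 (ENSMUSG00000031965.15, chromosome 9, 24718138 to 24774303, minus strand), which can activate or repress genes in heart cells, measured 14.4, 17.4 and 20.1 CPM in sham, 28.3, 31.2, 30.7 and 38.5 in MI, 38.9, 40.8, 38.4 and 39.8 in FAPI, and 33.3, 32.1, 34.1 and 29.3 in FapKO hearts. Each infarcted heart exceeded each sham heart. The log2 fold change from sham to MI was 0.89 (SE 0.122, edgeR adjusted p = 6.35e-06). Fibroblast markers moved with it: all 10 of a list of 10 rose from sham to MI, and their summed level ran from 3534 to 4090 CPM in sham and from 14960 to 21590 CPM in MI hearts. All 10 macrophage markers rose as well, from 2217 to 2440 summed CPM in sham to 7867 to 10980 in MI hearts, and the part of either cell type in the Tbx20 change was not tested. Tbx20 differed from MI by 0.30 in FAPI and by 0.0015 in FapKO hearts on the log2 scale. With total-count scaling in place of TMM these values were −0.12 and −0.55. Fibroblast markers had a mean log2 CPM of 8.401 in MI, 7.997 in FAPI and 7.64 in FapKO hearts, and macrophage markers 7.92, 7.34 and 6.70. Against MI, 4 of 10 fibroblast and 7 of 10 macrophage markers were called lower in FAPI hearts, and 7 and 10 in FapKO hearts.

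The MEF2 genes encode DNA-binding partners of the GATA and NKX factors. Mef2a (ENSMUSG00000030557.17, chromosome 7, 67231163 to 67372858, minus strand) measured 55.1, 59.1 and 85.4 CPM in sham, 35.0, 43.3, 45.1 and 38.7 in MI, 45.9, 50.3, 51.0 and 49.3 in FAPI, and 53.5, 51.8, 47.3 and 52.7 in FapKO hearts. Sham and MI did not overlap, and the log2 fold change was −0.72 (SE 0.132, edgeR adjusted p = 0.000145). Mef2d (ENSMUSG00000001419.17, chromosome 3, 88142372 to 88172086, plus strand) was the lowest of the MEF2 genes in the set, at 6.73 to 7.02 CPM in sham, 4.98 to 5.57 in MI, 3.95 to 6.03 in FAPI and 4.64 to 6.74 in FapKO hearts. Its log2 fold change from sham to MI was −0.39 (SE 0.149, edgeR adjusted p = 0.0277). Leaving out any 1 sham heart or MI replicate 3 raised the adjusted p to between 0.0503 and 0.0707.

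Mef2c (ENSMUSG00000005583.16, chromosome 13, 83504034 to 83667080, plus strand), which also works in skeletal muscle, measured 68.3, 71.5 and 75.7 CPM in sham, 58.6, 137.3, 65.2 and 61.0 in MI, 54.5, 62.6, 66.8 and 69.3 in FAPI, and 91.4, 65.5, 73.9 and 69.3 in FapKO hearts. The highest MI heart and the highest FapKO heart were the pair richest in skeletal muscle RNA. The log2 fold change from sham to MI was 0.17 (SE 0.233, edgeR adjusted p = 0.538) and turned to −0.22 (adjusted p = 0.132) without MI replicate 2. Mef2c was not called in any of the 6 heart comparisons with all libraries.

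Hand2 (ENSMUSG00000038193.4, chromosome 8, 57320983 to 57324633, plus strand), a partner of GATA4 in heart development, measured 13.9, 11.8 and 13.8 CPM in sham, 10.9, 8.28, 12.9 and 10.0 in MI, 12.3, 14.2, 12.1 and 14.5 in FAPI, and 11.3, 13.1, 11.1 and 13.5 in FapKO hearts. The groups overlapped throughout. Its log2 fold change from sham to MI was −0.33 (SE 0.138, edgeR adjusted p = 0.0446), a call that was lost without sham replicate 1 or 3 or MI replicate 1, 2 or 4 (adjusted p 0.0554 to 0.139).

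The direction of the small changes depended on scaling, and the TMM factors ran from 0.626 to 0.697 in sham and from 1.24 to 1.55 in MI libraries. With total-count scaling the median change over all genes from sham to MI was 1.23 in place of 0.141 (log2). On that scale Gata6 (0.62), Mef2a (0.36), Mef2d (0.70) and Hand2 (0.74) had positive signs, Mef2c was called higher (1.29), the Gata4 call was lost (−0.18, edgeR adjusted p = 0.308), and 5 genes were higher and 3 lower. Prox1, Tbx5 and Nkx2-5 kept negative and Tbx20 a positive sign with both scalings.

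**Figure D2:**
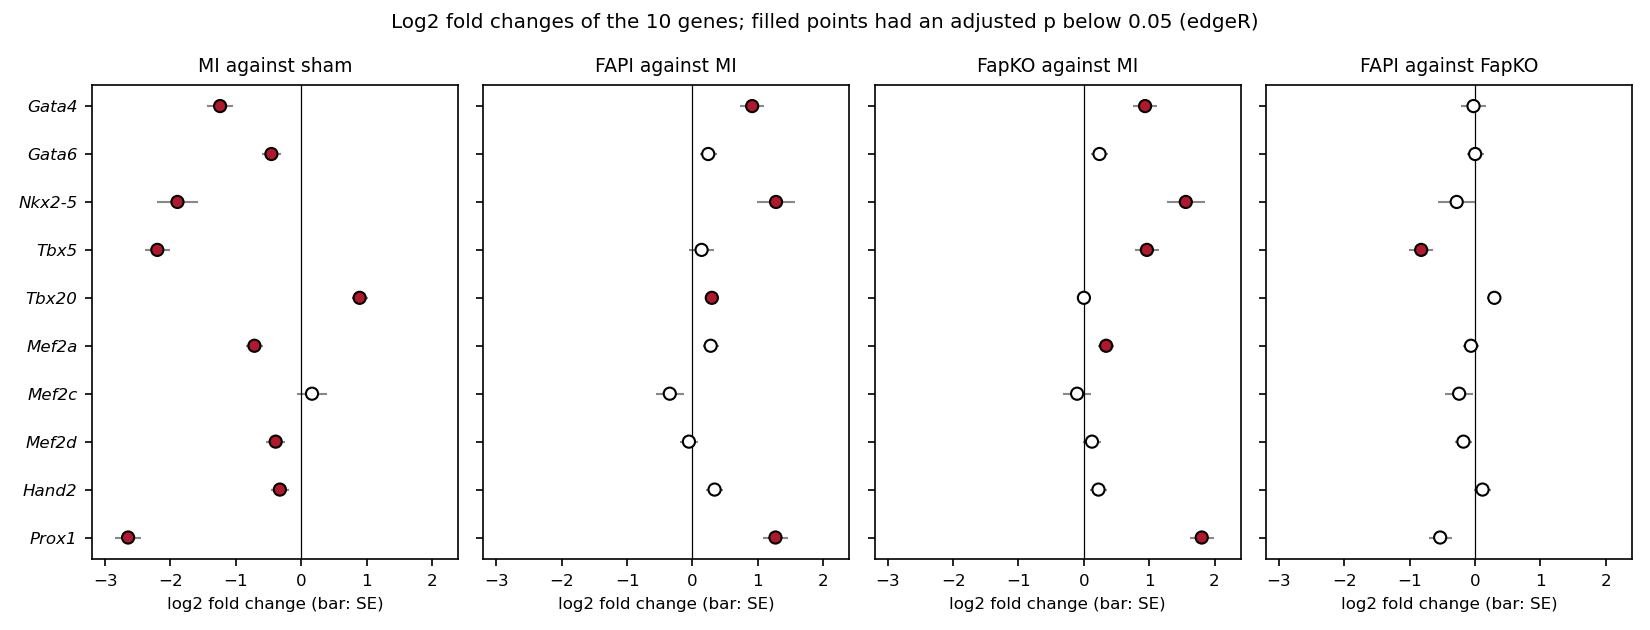
Log2 fold changes (x axis) of the 10 genes (y axis) in 4 comparisons of hearts. Points are edgeR estimates, bars are SE, and filled points had an adjusted p below 0.05. MI against sham has 9 filled points, and FAPI against FapKO has 1, Tbx5.

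Comparison of FAPI with MI hearts asked how the inhibitor group differed from untreated infarction. Nkx2-5, Prox1, Gata4 and Tbx20 were higher in FAPI hearts and no gene of the 10 was lower, where 29.8% of all genes tested were called, 17.9% higher and 11.9% lower. The median log2 fold change was 0.287, against −0.0298 over all genes. Nkx2-5 rose by 1.28 on the log2 scale (SE 0.288, edgeR adjusted p = 0.00361), Prox1 by 1.27 (SE 0.186, adjusted p = 0.000221) and Gata4 by 0.91 (SE 0.187, adjusted p = 0.00194). For Prox1 and Gata4 the 4 FAPI hearts lay above the 4 MI hearts, and for Nkx2-5 FAPI replicate 3 lay just below MI replicate 3. Tbx20 rose by 0.30 (SE 0.107, edgeR adjusted p = 0.0470). That call was lost when any FAPI heart or MI replicate 1, 2 or 3 was left out (adjusted p 0.0591 to 0.130). Tbx5 was not called (log2 fold change 0.14, SE 0.185, edgeR adjusted p = 0.607), nor were Gata6 (0.24, adjusted p = 0.182), Mef2a (0.28, 0.0976), Hand2 (0.34, 0.0509), Mef2c (−0.35, 0.239) or Mef2d (−0.05, 0.795). Hand2 lay at the threshold and was called with RLE size factors, the 1 CPM filter, DESeq2, limma-voom, and without MI replicate 3 or FAPI replicate 3 (adjusted p 0.0101 to 0.0461). With total-count scaling, on which the median of all genes was −0.44, Tbx20 turned to −0.12 and lost its call, and Mef2c (−0.80) and Mef2d (−0.48) were called lower. Without MI replicate 2 the Mef2c value was 0.039.

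Between FapKO and MI hearts, which differ in genotype after the same operation, 5 of the 10 genes were higher in FapKO and 0 were lower, beside 25% higher and 26% lower (51% in all) of all genes. The median log2 fold change was 0.291, against −0.0779 over all genes. Prox1 rose by 1.80 on the log2 scale (SE 0.187, edgeR adjusted p = 1.68e-06), Nkx2-5 by 1.56 (SE 0.290, adjusted p = 0.000312), Tbx5 by 0.96 (SE 0.181, adjusted p = 0.000340) and Gata4 by 0.94 (SE 0.188, adjusted p = 0.000585). For each of these the FapKO hearts lay above all MI hearts, and the share of all genes that did so was not counted. Mef2a rose by 0.34 (SE 0.122, edgeR adjusted p = 0.0283) and lost the call without MI replicate 1 or 4 or FapKO replicate 1, 2 or 4 (adjusted p 0.0524 to 0.0882). Tbx20 was not called (log2 fold change 0.0015, SE 0.107, adjusted p = 0.992), and Gata6, Hand2, Mef2d and Mef2c were at 0.24, 0.22, 0.12 and −0.10 without a call. Without MI replicate 3, Gata6 (0.35, adjusted p = 0.0368) and Hand2 (0.34, 0.0311) were also called, which made 7. Without MI replicate 2 the Mef2c value turned to 0.28, without a call. With total-count scaling 4 genes were higher and 4 lower, as Tbx20 (−0.55), Mef2c (−0.69), Mef2d (−0.42) and Hand2 (−0.30) were called lower against a median of −0.63 over all genes. Both comparisons share the MI hearts, so their values are not independent of each other.

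FAPI and FapKO hearts were then compared directly, with 13.2% of all genes called, 7.05% higher and 6.12% lower in FAPI. Tbx5 was the 1 gene of the 10 that was called: its mean was 2.43 ± 0.506 CPM in FAPI and 4.32 ± 0.758 in FapKO hearts (SD, n = 4 each). The log2 fold change was −0.83 (SE 0.180, edgeR adjusted p = 0.00719), the groups did not overlap, and the call held in each left-out library with values from −0.99 to −0.72. Prox1 was lower in FAPI without a call (−0.53, SE 0.176, edgeR adjusted p = 0.0551), and passed without FAPI replicate 4 or FapKO replicate 2 (adjusted p 0.0346 and 0.0364) and with DESeq2 (0.0277) or limma-voom (0.0355). Tbx20 was higher in all 4 FAPI hearts than in any FapKO heart but was not called (0.29, SE 0.107, edgeR adjusted p = 0.0790). It was called with only the groups compared in the fit (0.30, edgeR adjusted p = 0.0313) and with total-count scaling (0.43, adjusted p = 0.0404). Nkx2-5 (−0.28, SE 0.282), Gata4 (−0.025, SE 0.184) and Gata6 (0.0003, SE 0.131) were not called either.

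Against sham, infarction changed together with FAPI or genotype, and their parts cannot be told apart. In FAPI hearts 5 of the 10 genes differed from sham, beside 55.8% of all genes, 29.2% higher and 26.5% lower. Tbx5 (log2 fold change −2.06, SE 0.189, edgeR adjusted p = 3.63e-07), Prox1 (−1.38), Mef2a (−0.44) and Mef2d (−0.44) were lower, and Tbx20 was higher (1.19). In FapKO hearts Tbx5 (−1.24, SE 0.185, edgeR adjusted p = 0.000136), Prox1 (−0.84) and Mef2a (−0.37) were lower and Tbx20 (0.90) was higher, beside 20.3% lower and 19.2% higher (39.5% in all) of all genes. Nkx2-5 and Gata4 were not called against sham in FAPI (−0.62, adjusted p = 0.0948, and −0.33, 0.174) or in FapKO hearts (−0.33, 0.397, and −0.30, 0.240). With no filter on low counts, or with only the groups compared in the fit, Nkx2-5 was called lower in FAPI than in sham hearts (−0.56, edgeR adjusted p = 0.0351, and −0.60, 0.0276). The order of group means was sham, FapKO, FAPI, MI for Gata4, Gata6, Nkx2-5, Tbx5, Mef2a and Prox1. In that order the neighbours that differed were FAPI and MI for Nkx2-5 and Gata4, sham and FapKO and then FapKO and FAPI for Tbx5, sham and FapKO and then FAPI and MI for Prox1, and sham and FapKO for Mef2a. No neighbours differed for Gata6. Without sham replicate 3, which held the highest Mef2a value, Mef2a lost its call against sham in FAPI (−0.22, adjusted p = 0.119) and FapKO hearts (−0.15, 0.307). The FapKO call was also lost without FapKO replicate 2, 3 or 4 (0.0533 to 0.0736), and the Mef2d call in FAPI without sham replicate 1 or FAPI replicate 3 (0.0549 and 0.0558). Prox1 lost its call in FapKO against sham hearts with total-count scaling (−0.31, edgeR adjusted p = 0.0981). The median of all genes on that scale was 0.59.

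Cardiomyocyte markers moved with the same comparisons. Their mean log2 level differed by −2.79 between MI and sham hearts, by 1.70 between FAPI and MI, by 2.13 between FapKO and MI and by −0.43 between FAPI and FapKO. Set against the marker level of the same heart, Prox1 lay at −6.63 ± 0.181 in sham (SD, n = 3), −6.54 ± 0.192 in MI, −6.92 ± 0.213 in FAPI and −6.82 ± 0.116 in FapKO hearts (log2 difference, SD, n = 4 each), and every pair of groups overlapped. Nkx2-5 and Gata4 fell less than the marker mean from sham to MI, with relative shifts of 0.76 and 1.49 and no overlap of the groups. This was not particular to them: every gene of the set had a positive shift, from 0.09 for Prox1 to 3.69 for Tbx20. The groups overlapped for Prox1 and Tbx5. Single markers differed from their mean. Myom1 (−1.64), Tnnt2 (−1.58) and Actc1 (−1.56) fell less than Nkx2-5 (−1.89), while Atp2a2, Ckm, Mb, Myh6, Myl2 and Tnni3 fell more. Tbx5 relative to the markers differed by −0.40 between FAPI and FapKO hearts, by −0.99 between FAPI and sham and by −0.59 between FapKO and sham hearts, each without overlap. Tbx20 rose relative to the markers by 3.69 from sham to MI. In FAPI against MI every gene of the set had a negative relative shift, from −0.325 for Nkx2-5 to −1.95 for Mef2c. All were negative in FapKO against MI too, from −0.28 for Prox1 to −2.14 for Mef2c. In both comparisons the groups overlapped for Prox1 only.

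**Figure D3:**
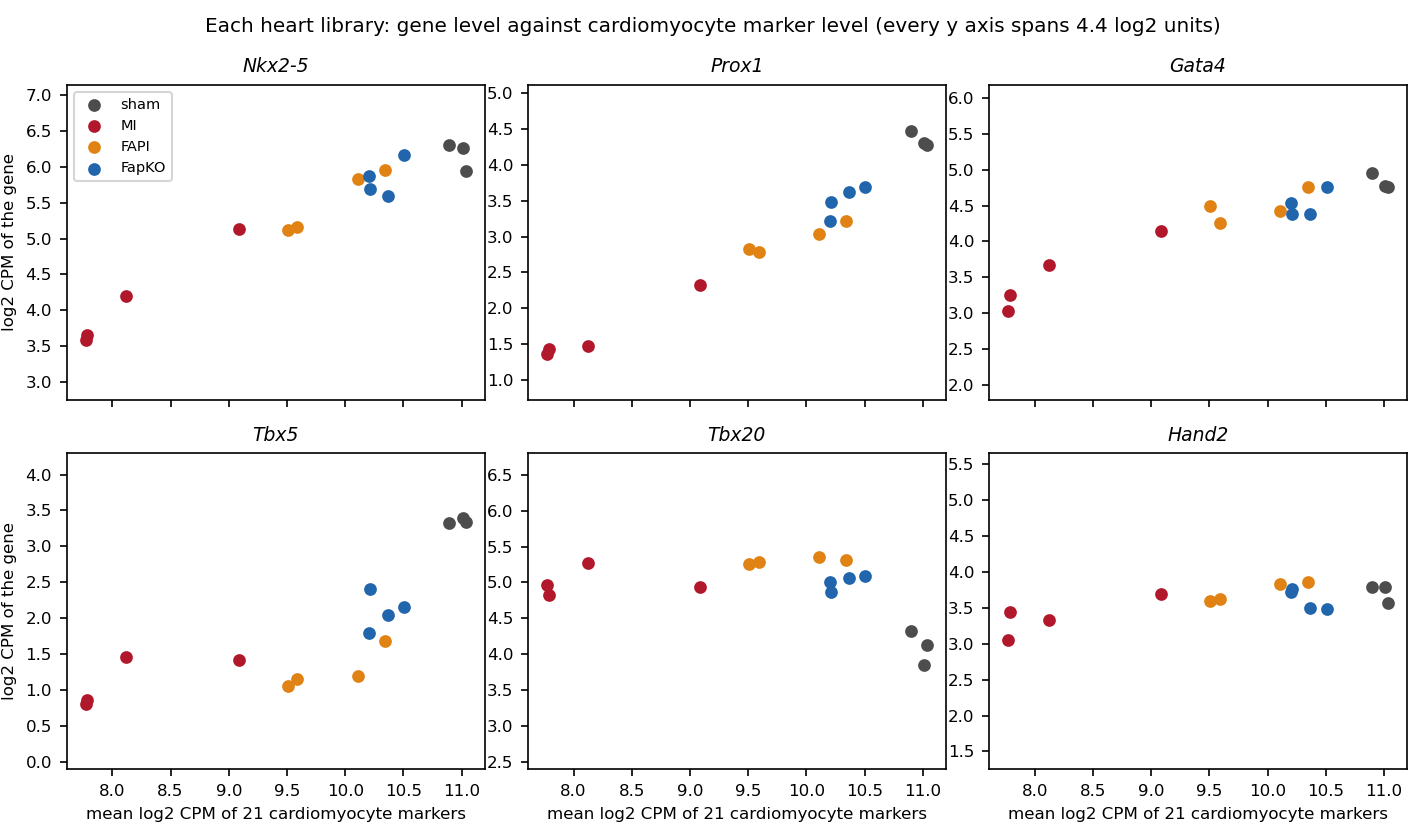
Log2 CPM of 6 genes (y axes, each spanning 4.4 log2 units) against the mean log2 CPM of 21 cardiomyocyte markers (x axis), 1 point per heart, coloured by group. Nkx2-5, Prox1 and Gata4 are low in MI hearts and high in sham hearts together with the markers, Tbx5 is lower in FAPI than in FapKO hearts, and Hand2 varies little.

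When that marker level entered the edgeR fit as a covariate, 0 of the 10 genes were called between MI and sham, FAPI and MI, or FapKO and MI hearts. At an unadjusted p below 0.05 there were 3, 0 and 1. Marker level and group were nearly bound together in those comparisons, so their parts cannot be told apart. The calls over all genes fell to 1050, 27 and 129 in the same fits. Tbx5 was still called between FAPI and FapKO hearts (−0.64, edgeR adjusted p = 0.02196). Against sham, Tbx5 and Prox1 were called lower and Tbx20 higher in both FAPI (−1.58, −0.68 and 1.23) and FapKO hearts (−0.94, −0.42 and 0.92), and Nkx2-5 was called higher in FAPI (0.53, adjusted p = 0.0343). Sham marker levels (10.89 to 11.03) lay above those of all FAPI (9.51 to 10.34) and FapKO hearts (10.2 to 10.51). Marker level and group therefore cannot be told apart against sham either.

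Per kilobase of exon, Nkx2-5 had the highest mean of the 10 in every heart group, with 42.1 ± 5.73 CPM per kb in sham (SD, n = 3) and 11.4 ± 6.29 in MI hearts (SD, n = 4). Its MI range overlapped that of Mef2c, which was the higher of the pair in MI replicate 2 (8.74 against 6.96 CPM per kb). Gata4 came next in sham, FAPI and FapKO hearts (7.25, 5.77 and 5.88 CPM per kb). Its range overlapped that of Hand2 in FAPI and FapKO hearts, where Hand2 averaged 5.64 and 5.21 CPM per kb. In MI hearts Mef2c (5.12 CPM per kb, with 1 library far above the others), Hand2 (4.47), Gata6 (3.24) and Gata4 (3.07) followed, and their ranges overlapped. Prox1, Tbx5 and Mef2d were the 3 lowest in MI, FAPI and FapKO hearts, between 0.388 and 1.36 CPM per kb. In sham hearts Mef2d (1.15), Tbx20 (1.44) and Tbx5 (2.18) were the lowest.

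The nearest genes in shape across the 15 hearts were sought among 13403 genes of at least 1 CPM by the root mean square (RMS) difference of centred log2 CPM. Nearest to Nkx2-5 were Dmpk, Rrad and Actn2, the last a sarcomeric actinin, at 0.155 to 0.166. Nearest to Prox1 were the mitochondrial mt-Cytb, Atp5mpl and 2310061I04Rik, at 0.133 to 0.137. Nearest to Gata4 were mt-Ta, Nol3 and Smpd1 at 0.130 to 0.155. Those of Tbx5 were Fign, Gm43050 and Ccdc69 (0.205 to 0.213), and those of Tbx20 were Ltbp4, Tspan17 and Cdc27 (0.162 to 0.180). Among the less mobile genes the closest were Ppp1r16a for Gata6, Slc41a1 for Mef2a, Vsig2 for Mef2c, Safb for Mef2d and Gtf2f1 for Hand2 (0.105 to 0.223). Prox1 and Nkx2-5 were each other's nearest among the 10, at 0.355, and Gata4 lay practically as near to Nkx2-5, at 0.356. These likenesses are descriptions over libraries that share groups and cell makeup.

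Several of the genes lie beside or across another gene, and whether the counting used strand is not given in the sources used here, so reads of overlapping antisense genes cannot be told apart. Hand2 shares 461 exonic bases with Hand2os1, an RNA gene on the opposite strand. Hand2os1 averaged 127.8 CPM in sham, 25.5 in MI, 58.6 in FAPI and 72.0 in FapKO hearts. It fell from sham to MI by 2.33 on the log2 scale (SE 0.267, edgeR adjusted p = 9.67e-07), and sham and MI hearts did not overlap, while Hand2 changed by −0.33. It was higher in FAPI than in MI (1.20, adjusted p = 0.00198). Gm43050, a lincRNA gene beside Tbx5 on the opposite strand with no shared exonic base, averaged 15.03 CPM in sham, 3.25 in MI, 4.34 in FAPI and 6.90 in FapKO hearts. Its log2 fold changes were −2.22 from sham to MI and −0.67 in FAPI against FapKO hearts (SE 0.197, edgeR adjusted p = 0.0341), beside −2.20 and −0.83 for Tbx5. Prox1os, with 133 exonic bases shared with Prox1, was lower in MI than in sham hearts (−2.88, edgeR adjusted p = 1.25e-05). Genes on the opposite strand also share exonic bases with Mef2d (1700113A16Rik, 531 bases), Mef2a (Lysmd4, 302) and Gata6 (1010001N08Rik, 93).

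**Figure D4:**
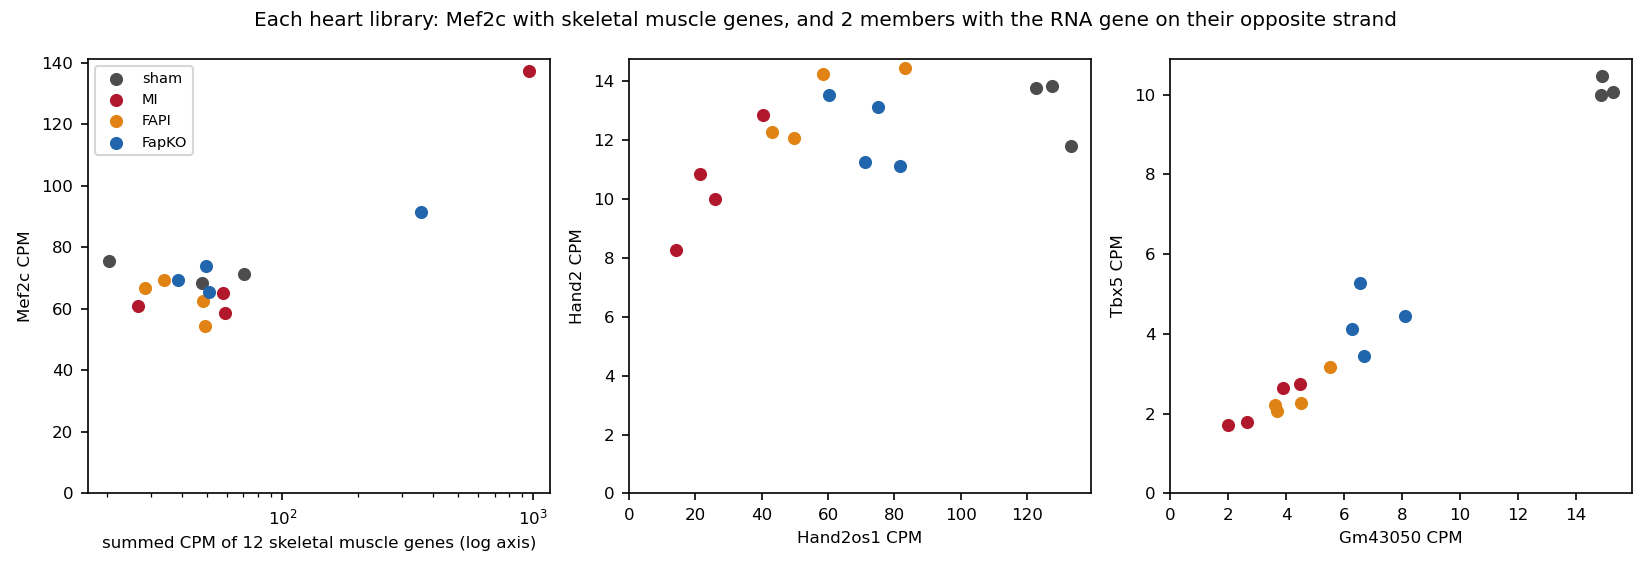
Left, Mef2c CPM (y axis) against the summed CPM of 12 skeletal muscle genes (log x axis); middle and right, Hand2 against Hand2os1 CPM and Tbx5 against Gm43050 CPM; 1 point per heart, coloured by group. The 2 hearts with the most skeletal muscle RNA have the highest Mef2c, Hand2os1 spreads widely while Hand2 does not, and Tbx5 and Gm43050 are both highest in sham hearts.

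Family relatives and partners of these factors were read from a list of 20, of which 17 passed the filter in hearts. Between MI and sham 9 were lower, 1 was higher and 7 were not called, beside 32% lower and 37.1% higher of all genes, and their median log2 fold change was −0.562 against 0.141 over all genes. The lowest were Hopx (−3.58), a homeodomain-only protein, Smyd1 (−2.98), a muscle methyltransferase, Irx4 (−2.79), a ventricular homeobox gene, and Myocd (−2.01), the coactivator myocardin. Tbx18 was the 1 that was higher (1.15, SE 0.156, edgeR adjusted p = 6.20e-06). In FAPI against MI 5 rose (Smyd1, Hopx, Irx4, Myocd and Irx3) and 10 rose in FapKO against MI, with 0 lower in either. Of all genes 17.9% and 25% were higher in these comparisons. Hopx (−1.32, SE 0.199, edgeR adjusted p = 0.000555) and Tbx3 (−0.70, SE 0.160, adjusted p = 0.00910) were lower in FAPI than in FapKO hearts. Hopx averaged 4.25 CPM in FAPI and 10.6 in FapKO hearts, and Tbx3 2.81 and 4.59.

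MEF2 proteins are restrained by class IIa histone deacetylases and released by kinases and by the phosphatase calcineurin, and 17 such genes were read. Between MI and sham 8 were lower and 3 higher (Hdac7 1.06, Prkd3 1.14 and Mapk7 0.99), with a median of −0.252. The share called was near the 69.1% of all genes called in that comparison. Camk2a, a calcium-dependent kinase, had the smallest p (−2.26, SE 0.222, edgeR adjusted p = 1.74e-07). It averaged 7.07 CPM in sham, 1.46 in MI, 1.77 in FAPI and 3.69 in FapKO hearts, and was the 1 gene of the list that differed between FAPI and FapKO (−1.06, SE 0.207, adjusted p = 0.00336). Hdac7 was lower than in MI in both FAPI (−0.48) and FapKO hearts (−0.61), and Hdac9 was higher in both (0.49 and 0.42). These regulators act largely through protein modification, which counts of RNA do not show.

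Textbook target genes of the factors, 20 in all, were read beside them. Between MI and sham 13 were lower, 3 were higher (Nppa, Ankrd1 and Gja5) and 4 were not called, where 32% of all genes were lower and 37.1% higher. Of the 20, 9 are also in the cardiomyocyte marker list. Ckm (−3.60), Myh6 (−3.71), Tnni3 (−3.69) and Atp2a2 (−3.10) had the smallest p. Nppa, the atrial natriuretic peptide gene, rose by 1.89 on the log2 scale (SE 0.329, edgeR adjusted p = 8.67e-05). In FAPI against MI 17 were higher and Gja5 was lower (−0.72), and in FapKO against MI 15 were higher and Gja5 was lower (−1.26), where 17.9% and 25% of all genes were higher. Nppb was called in FAPI against MI (1.77, SE 0.491, edgeR adjusted p = 0.0129) and not in FapKO against MI (0.59, SE 0.480, adjusted p = 0.322), and the difference between FAPI and FapKO hearts was not called (1.18, SE 0.483, adjusted p = 0.115), with means of 249.7 and 110.3 CPM. Ckm (−0.93) and Atp2a2 (−0.98) were lower in FAPI than in FapKO hearts.

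In cultured fibroblasts, co-culture with endothelial cells was compared with culture alone. Tbx5 and Hand2 were higher in co-culture, Tbx20, Mef2a and Mef2c were lower, Gata4, Gata6, Nkx2-5 and Mef2d were not called, and Prox1 did not pass the filter on low counts. Among all 12293 genes tested 59.8% were called, 30.3% higher and 29.5% lower. Co-cultured cells had been sorted as Pdgfra+ CD45- CD31- and cells grown alone had not, so partner cells and sort changed together and cannot be told apart. Macrophage markers had a mean log2 CPM of 3.05 in co-culture and 4.70 alone, with 9 of 10 lower in co-culture, and epicardial markers 1.80 and 3.38, with 4 of 5 lower. Fibroblast markers were at 8.38 in co-culture and 7.59 alone. Of the 21 cardiomyocyte markers 10, Myh6 and Actc1 among them, were at 0 in co-culture, and 4 were at 0 alone, while Tnnt2 averaged 163.2 and 159.2 CPM. The part of these other cells in the results was not tested. Replicate 2 of the cells grown alone stood apart from the other 2 (chi-square per degree of freedom 159.5 and 177.9, against 9.69 between those), and without it the same 2 genes were called higher and 3 lower.

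Hand2 measured 75.6, 71.8 and 67.6 CPM in co-culture and 28.1, 32.6 and 31.4 alone. The groups lay far apart, and Hand2 rose by 1.22 on the log2 scale (SE 0.116, edgeR adjusted p = 3.51e-05). Hand2os1 was higher as well (1.03, adjusted p = 0.00135), with 15.9 CPM in co-culture and 7.78 alone. Tbx5 measured 3.15, 5.14 and 2.62 CPM in co-culture, from 13 to 23 counts, and 0.767, 0.796 and 0.752 alone, from 10 to 14 counts. Its log2 fold change was 2.21 (SE 0.344, edgeR adjusted p = 0.000596), and Gm43050 beside it changed by 2.14 (SE 0.481, adjusted p = 0.00448).

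Tbx20 measured 68.1, 58.4 and 70.7 CPM in co-culture and 106.4, 99.9 and 108.2 alone. It fell by 0.67 on the log2 scale in co-culture (SE 0.115, edgeR adjusted p = 0.00103). Mef2a measured 9.70, 12.7 and 12.4 CPM in co-culture against 16.9, 16.6 and 21.4 alone (−0.65, SE 0.175, edgeR adjusted p = 0.0107). Mef2c measured 2.91, 6.04 and 4.72 CPM against 8.08, 7.32 and 10.3 (−0.91, SE 0.269, edgeR adjusted p = 0.0171). The Mef2c call was lost without co-culture replicate 1 or 3 or 3D-culture replicate 3, and with libraries thinned to 4735337 counts (adjusted p 0.0514 to 0.0538). For all 3 genes the groups did not overlap, and the share of all genes without overlap was not counted.

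**Figure D5:**
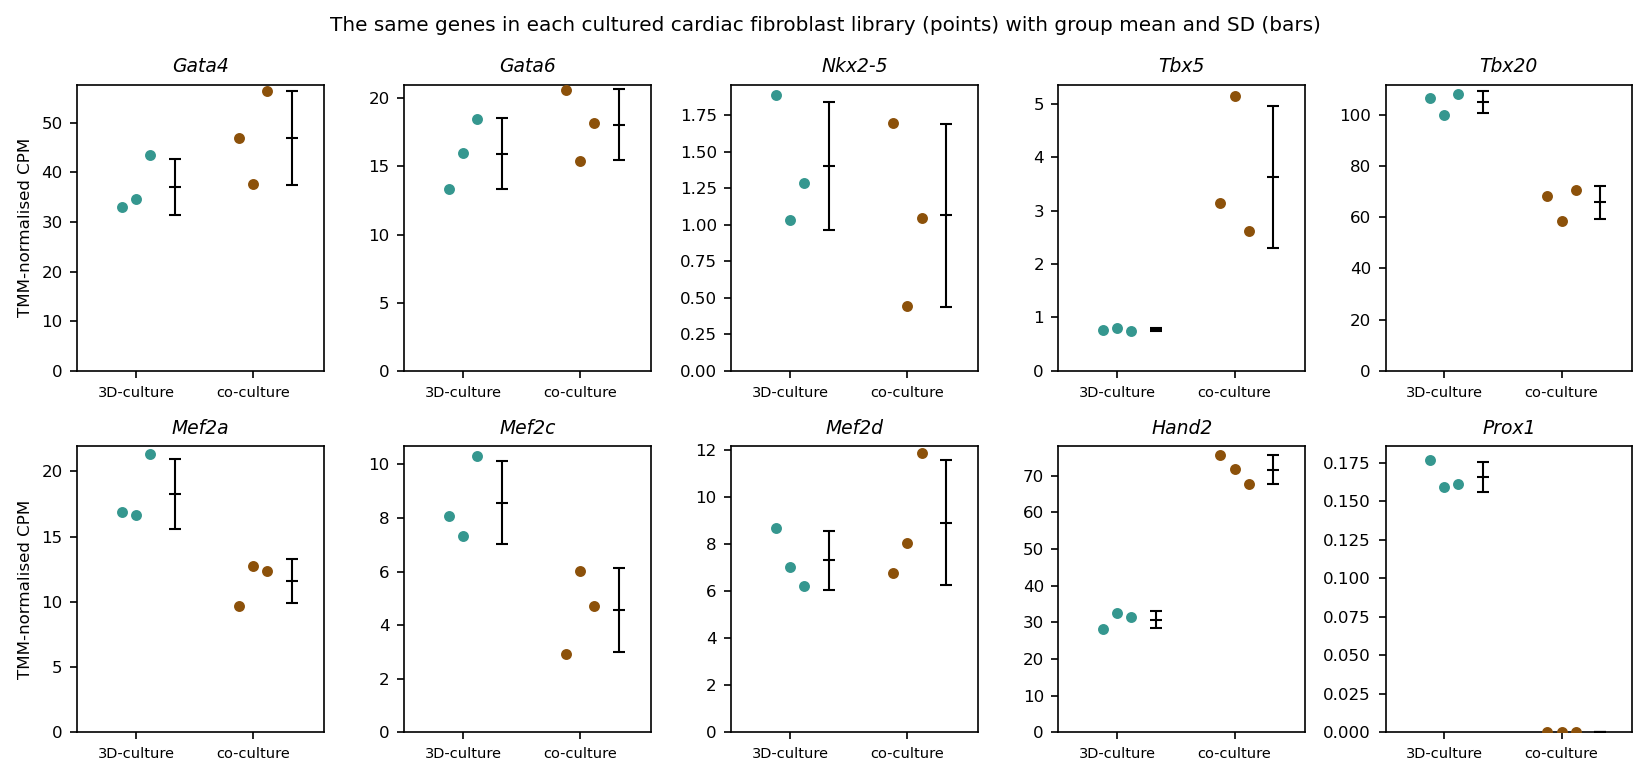
TMM-normalised CPM of the 10 genes (y axis, starting at 0) in fibroblasts grown alone (3D-culture) and with endothelial cells (co-culture). Points are libraries and bars are group mean and SD. Hand2 and Tbx5 are higher and Tbx20 is lower in all 3 co-culture libraries.

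Gata4 was at 46.9 ± 9.42 CPM in co-culture and 37.0 ± 5.69 alone, and Gata6 at 18.1 ± 2.59 and 16.0 ± 2.60 (SD, n = 3 each). Neither was called (0.34, edgeR adjusted p = 0.118, and 0.18, adjusted p = 0.405). Mef2d was at 8.90 ± 2.65 and 7.30 ± 1.25 CPM (0.31, adjusted p = 0.301). Nkx2-5, the leading gene of hearts, reached 1.06 ± 0.625 CPM in co-culture and 1.40 ± 0.438 alone, from 2 to 7 and 13 to 32 counts (−0.43, adjusted p = 0.453). Prox1 had 0 counts in the co-culture libraries, which allows up to 0.726, 0.670 and 0.523 CPM at 3 counts, and 2 to 3 counts alone (0.159 to 0.177 CPM). No difference in Prox1 was detectable at that depth.

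Per kilobase, Hand2 led in both cultures (30.5 ± 1.72 CPM per kb in co-culture and 13.1 ± 0.986 alone, SD, n = 3 each), followed by Gata4 (12.02 and 9.47) and Tbx20 (5.48 and 8.74). In culture alone the ranges of Gata4 and Tbx20 overlapped. Of the partner genes only 7 of 20 passed the filter in fibroblasts. Tbx2 was higher in co-culture (2.32, SE 0.338, edgeR adjusted p = 0.000403), and Tbx18 (−1.22, adjusted p = 0.00126) and Tead1 (−1.06, adjusted p = 0.000368) were lower. Among the 14 regulators of MEF2 that were tested, 4 were higher, of which Hdac5 had the smallest p (1.57, SE 0.164, edgeR adjusted p = 5.99e-05), and 4 were lower: Prkd1 (−1.93), Hdac4 (−1.12), Ppp3ca (−1.10) and Camk2g (−0.89). The share of these regulators called was near the 59.8% of all genes called in that comparison, 30.3% higher and 29.5% lower.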

How the data were processed

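Heart libraries came from total RNA and fibroblast libraries from polyadenylated RNA, made with a Smart-seq2 protocol carrying molecular barcodes, per the labels' protocols. The deposited values are whole counts per gene, which the authors made by aligning to mm10 with STAR and counting with HTSeq, per the submitters' processing notes, which name no versions. A further deposited table was left out: none of its 6 columns could be tied to a sample's labels.

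The 10 genes and the 13 gene lists were chosen with earlier results of these data known. A list of 12 skeletal muscle genes was added after its values were seen. Gene symbols came from GENCODE M21 (53620 of 53801 identifiers matched). Counts were filtered with filterByExpr, scaled with TMM and tested with edgeR 4.0.16 in R 4.3.3 by the quasi-likelihood F test, with all 15 hearts in one fit and the 6 fibroblast libraries in another, for 7 comparisons. The SE of a log2 fold change is approximate, its absolute value over the square root of F. Group errors are SD. Overlap of groups was read gene by gene, without a count over all genes. The test was first run on simulated data. All 10 genes were named, with up to 4 genes of smallest p from each other list, passing partners, and the 3 genes most alike each. Alternatives were RLE and total-count scaling, other filters, DESeq2 1.42.0, limma-voom 3.58.1, a replicate block, the marker covariate, thinning, pairwise fits and each library left out. Intervals and floors cover counting error only. Figures were drawn with matplotlib 3.10.9, and tables with pandas 2.3.3 and numpy 2.4.6 under Python 3.11.15.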

Additional observations from a re-analysis of the deposited data

Results flagged for a closer look

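In 30 sets of 4 hearts, 1 gene in 1 group each, the highest or lowest heart was compared with its nearest neighbour. Chance marks about 1 in 20 such sets. MI replicate 2 stood far above its group for Mef2c at 137.3 CPM, with a gap of 0.875 of the group's log2 range against a limit of 0.829. That heart also held 958.2 CPM of the skeletal muscle genes. MI replicate 3 stood above its group for Prox1 at 5.009 CPM, with a gap of 0.876 of the range, and it had the highest cardiomyocyte marker level of the MI hearts (9.09). The part of either in these values was not tested.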

How the results depend on the processing

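Of the values of single genes under other settings, 1037 of 1231 kept direction and call. With the sign kept, 79 lost a call and 24 gained one. The other 91 changed sign, some of them with a lost or gained call as well. The causes were not tested. The number of the 10 genes called was 9 in MI against sham, 4 in FAPI against MI, 5 in FapKO against MI, 1 in FAPI against FapKO, 5 in FAPI against sham, 4 in FapKO against sham and 5 in co-culture. In the same order, calls that also had to reach 1 on the log2 scale in either direction numbered 4, 2, 2, 0, 3, 1 and 2, and total-count scaling gave 8, 5, 8, 2, 5, 3 and 5. With the marker covariate it was 0, 0, 0, 1, 4 and 3 in hearts. FAPI against FapKO gave 2 with no filter, a filter of 1 CPM in 3 libraries, DESeq2 or limma-voom, and 3 with only the groups compared. With 1 library left out the counts ranged over 6 to 8, 3 to 4, 4 to 7, 1 to 2, 4 to 5, 3 to 4 and 4 to 5. Deviations of same-numbered libraries from their group means correlated at −0.259 to 0.298 in hearts (median 0.071) and −0.148 to 0.049 in cultures (median −0.071). Libraries of different number had medians of −0.024 and 0.053. The labels do not say whether the numbers pair libraries, and these correlations cannot exclude it. A replicate block gave 9, 3, 5, 1, 5, 4 and 5. Total-count scaling split all genes called into 12663 higher and 2037 lower in MI against sham (6331 and 5452 with TMM), 1448 and 8485 in FAPI against MI (3053 and 2028), 2076 and 10455 in FapKO against MI (4271 and 4429), 1573 and 745 in FAPI against FapKO (1203 and 1044), 10769 and 1632 in FAPI against sham (4987 and 4530), 9169 and 825 in FapKO against sham (3281 and 3459) and 2506 and 5162 in co-culture (3729 and 3622). Log2 values that changed sign with total-count scaling were, in MI against sham Gata6 0.62, Mef2a 0.36, Mef2d 0.70, Hand2 0.74. In FAPI against MI Gata6 −0.17, Tbx5 −0.28, Tbx20 −0.12, Mef2a −0.14, Hand2 −0.0713. In FapKO against MI Gata6 −0.30, Tbx20 −0.55, Mef2a −0.20, Mef2d −0.42, Hand2 −0.30. In FAPI against FapKO Gata4 0.10, Mef2a 0.0663. In FAPI against sham Gata4 0.33, Gata6 0.45, Nkx2-5 0.0229, Mef2a 0.22, Mef2c 0.48, Mef2d 0.22. In FapKO against sham Gata4 0.23, Gata6 0.32, Nkx2-5 0.20, Mef2a 0.15, Mef2d 0.28, Hand2 0.44. In co-culture against 3D-culture Gata4 −0.0049, Gata6 −0.17, Mef2d −0.0444. With the marker covariate they were, in MI against sham Gata4 0.43, Gata6 0.32, Nkx2-5 1.02, Mef2c −0.46, Hand2 0.44. In FAPI against MI Gata4 −0.0878, Gata6 −0.23, Nkx2-5 −0.49, Tbx5 −0.63, Mef2c 0.0463, Mef2d 0.0259, Hand2 −0.13. In FapKO against MI Gata4 −0.33, Gata6 −0.35, Nkx2-5 −0.64, Tbx20 −0.0696, Mef2c 0.38, Hand2 −0.36. In FAPI against FapKO Gata4 0.24, Nkx2-5 0.15. In FAPI against sham Gata4 0.34, Gata6 0.0931, Nkx2-5 0.53. In FapKO against sham Gata4 0.10, Nkx2-5 0.38, Mef2c −0.0802, Hand2 0.0854. Without MI replicate 2 and FapKO replicate 1, a setting chosen after seeing the data, they were, in MI against sham Mef2c −0.22. In FAPI against MI Mef2c 0.0396. In FapKO against MI Tbx20 −0.0310, Mef2c 0.17. In FapKO against sham Mef2c −0.0444. Under the setting 1 CPM in 3 libraries, the sign turned for Tbx20 −0.0035 in FapKO against MI, Gata6 −0.0019 in FAPI against FapKO. Under the setting only the groups compared, the sign turned for Tbx20 −0.0007 in FapKO against MI. Under the setting RLE size factors, the sign turned for Gata6 −0.0137 in FAPI against FapKO, Hand2 −0.0455 in FAPI against sham. Under the setting DESeq2, the sign turned for Gata6 −0.0136 in FAPI against FapKO, Hand2 −0.0457 in FAPI against sham. Under the setting limma-voom, the sign turned for Gata6 −0.0020 in FAPI against FapKO. Under the setting replicate block, the sign turned for Hand2 −0.0114 in FAPI against sham. Values whose sign turned with 1 library left out ranged as follows: Mef2c in MI against sham −0.22 to 0.29, Tbx5 in FAPI against MI −0.0229 to 0.25, Mef2c in FAPI against MI −0.47 to 0.0393, Mef2d in FAPI against MI −0.15 to 0.0502, Tbx20 in FapKO against MI −0.0564 to 0.10, Mef2c in FapKO against MI −0.23 to 0.28, Gata4 in FAPI against FapKO −0.12 to 0.0658, Gata6 in FAPI against FapKO −0.0447 to 0.0427, Hand2 in FAPI against sham −0.0601 to 0.0555, Mef2c in FapKO against sham −0.0460 to 0.12. Low counts limit Nkx2-5, Tbx5 and Prox1 in culture.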
